A study of Mus musculus with 9 samples.

Results

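Interferon-stimulated genes (ISGs) are the genes that cells switch on when an interferon binds its receptor. Of the 50813 genes counted in these libraries, 45 listed ISGs were taken by gene symbol, and all 45 were found. The list was chosen by name and role and not by the values measured here, although earlier results from the same libraries were known when it was drawn up. It holds transcription factors, sensors of viral nucleic acid, antiviral effectors, the ISG15 conjugation system, ADP-ribosyltransferases and immune GTPases.

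RNA-seq was performed on cultured LLC cells, which derive from a mouse Lewis lung carcinoma and here carried luciferase. The 3 lines were wild-type (WT) cells and the CD47 knockout (KO) clones E3 and E5, each with 3 libraries from independent biological replicates. CD47 is a surface protein that restrains phagocytosis by macrophages, and the study asked how its loss changes the transcriptome of lung cancer cells. The KO lines came from electroporation of Cas9 and guide RNA complexes and were each expanded from 1 cell clone, so genotype and clone cannot be told apart. No interferon treatment is described for any of the 3 lines, which grew in the same serum-containing medium.

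Type I interferons bind IFNAR1 and IFNAR2, and type II interferon binds IFNGR1 and IFNGR2. The kinases JAK1, JAK2 and TYK2 on these receptors then phosphorylate STAT proteins. The complex ISGF3, which includes STAT2 and IRF9, binds the interferon-stimulated response element (ISRE), whereas STAT dimers bind the gamma-activated sequence (GAS). IRF1 binds ISRE-like sites too. Tumour cells can carry a constant low level of ISG transcription without added interferon, and part of the list can also be induced by IRF3 or IRF1 alone.

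The promoter sequences show which of these elements lie near the members' start sites. RefSeq promoters, tabulated for GRCm38.p6 from 250 bases before to 50 bases after each start site, were listed for 34 of the 45 members, and all 40 of their windows had 1 exact match in GRCm39. An ISRE core (GAAA, then any 2 bases, then GAAA, on either strand) was found for 18 of the 34 members, or 52.9%, against 3.99% of the 27018 genes in the promoter table. A GAS core (TTC, then any 3 bases, then GAA, which is the same pattern on both strands) was found for 8 members, or 23.5%, against 9.55% of genes, and 5 members had both. With a C required after the ISRE core, the shares were 41.2% of members and 0.944% of genes. These matches describe letters only, and binding was not measured.

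The 250 bases before the start site are given here for 7 members, in GRCm39 coordinates and on the strand of the gene, with ISRE and GAS cores in capitals. Ifit3 and Ifit3b are neighbouring copies that share a pair of ISRE cores. Igtp and Irf1 are targets with a GAS core, and Igtp also has an ISRE. Ifi203 and Oas3 moved in opposite directions in clone E3, and Isg15 is the member with the most ISRE cores of those shown. Irf1 and Ifi203 had a second window, without a core. For Ifi203 that second window (chr1:173770239-173770488) borders the start of the gene as deposited. The Ifi203 window printed here lies mostly inside the deposited gene. The windows are Ifit3 at chr19:34560679-34560928 (plus strand), Ifit3b at chr19:34585107-34585356 (plus strand), Igtp at chr11:58090132-58090381 (plus strand), Irf1 at chr11:53660591-53660840 (plus strand), Ifi203 at chr1:173770059-173770308 (minus strand), Oas3 at chr5:120915725-120915974 (minus strand) and Isg15 at chr4:156285276-156285525 (minus strand).
Ifit3: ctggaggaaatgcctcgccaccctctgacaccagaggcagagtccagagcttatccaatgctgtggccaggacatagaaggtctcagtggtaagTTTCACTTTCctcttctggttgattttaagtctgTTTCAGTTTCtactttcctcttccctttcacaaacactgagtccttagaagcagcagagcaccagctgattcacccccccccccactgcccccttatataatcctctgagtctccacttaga
Ifit3b: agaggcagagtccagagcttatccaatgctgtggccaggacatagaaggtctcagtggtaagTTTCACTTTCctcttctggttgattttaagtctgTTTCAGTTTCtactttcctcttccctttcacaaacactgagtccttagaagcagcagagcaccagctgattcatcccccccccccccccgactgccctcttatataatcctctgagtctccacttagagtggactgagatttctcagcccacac
Igtp: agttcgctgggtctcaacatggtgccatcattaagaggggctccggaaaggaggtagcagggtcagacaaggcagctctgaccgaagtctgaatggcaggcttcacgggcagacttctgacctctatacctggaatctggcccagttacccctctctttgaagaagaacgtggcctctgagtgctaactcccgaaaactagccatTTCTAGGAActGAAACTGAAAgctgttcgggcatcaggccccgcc
Irf1: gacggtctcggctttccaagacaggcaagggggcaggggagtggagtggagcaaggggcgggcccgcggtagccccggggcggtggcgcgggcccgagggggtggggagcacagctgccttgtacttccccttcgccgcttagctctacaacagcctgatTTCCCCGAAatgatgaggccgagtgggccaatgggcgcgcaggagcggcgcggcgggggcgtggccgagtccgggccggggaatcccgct
Ifi203: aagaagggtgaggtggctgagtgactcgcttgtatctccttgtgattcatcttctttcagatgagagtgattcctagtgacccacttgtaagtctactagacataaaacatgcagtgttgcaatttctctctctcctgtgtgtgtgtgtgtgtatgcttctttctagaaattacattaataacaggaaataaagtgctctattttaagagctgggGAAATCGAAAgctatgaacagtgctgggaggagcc
Oas3: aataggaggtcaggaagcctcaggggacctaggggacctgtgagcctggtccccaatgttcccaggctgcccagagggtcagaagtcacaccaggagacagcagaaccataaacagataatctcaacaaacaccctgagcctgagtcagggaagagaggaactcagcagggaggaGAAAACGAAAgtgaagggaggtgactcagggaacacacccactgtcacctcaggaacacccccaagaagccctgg
Isg15: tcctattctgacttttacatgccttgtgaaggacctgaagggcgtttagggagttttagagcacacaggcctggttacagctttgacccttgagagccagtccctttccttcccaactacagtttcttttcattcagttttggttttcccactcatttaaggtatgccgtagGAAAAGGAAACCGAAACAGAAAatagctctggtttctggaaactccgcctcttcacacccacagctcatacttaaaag
The ISRE cores of Ifit3 begin 156 and 122 bases before the start site and those of Ifit3b 188 and 154 bases before it. In Igtp a GAS core 45 bases before the start is followed by an ISRE core at 34 bases. Irf1 has a GAS core 90 bases before the start, Ifi203 an ISRE core at 35 bases and Oas3 an ISRE core at 75 bases. Isg15 carries 3 overlapping ISRE cores, at 78, 72 and 66 bases before the start.

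Library totals were 47574047 to 49621282 counts in WT cells, 44257404 to 48672040 in KO E3 and 47378308 to 55095219 in KO E5. Cd47 was measured at 187, 179 and 182 CPM in WT cells, 47.4, 36.7 and 49.6 CPM in KO E3 and 15.5, 18.6 and 18.1 CPM in KO E5, so both clones carried less of the targeted transcript (log2 fold change -2.03 ± 0.13 and -3.39 ± 0.14, FDR 4.90e-06 and 1.07e-07). CPM are counts scaled to library size after TMM adjustment, the error after a log2 fold change is its SE, and FDR is the Benjamini-Hochberg adjusted p of edgeR's quasi-likelihood test over 14593 genes. Replicate 3 of KO E3 stood apart: the chi-square over its degrees of freedom was 189 and 229 for its counts against those of replicates 1 and 2, and 4.81 to 38.8 for the other replicate pairs. Its deviation followed exon length, the joined length of a gene's annotated exons. The median log2 difference was 0.39 for the shortest of 4 length classes of genes and -0.40 for the longest. Mesenchymal markers were abundant, at a summed 6990 to 9793 CPM. Of 10 leukocyte markers, 8 had at most 3 counts in every library, among them Ptprc, with Cd3e, Siglech and Ncr1 at 0, and the summed level of the 10 was 2.66 to 3.47 CPM in WT cells, 2.76 to 3.01 in KO E3 and 2.82 to 3.47 in KO E5. Markers of epithelial cells summed to 451 to 458 CPM, 127 to 198 CPM and 896 to 957 CPM in the 3 lines, with Epcam at 0 and Cldn4 and Esrp1 at 3 counts or fewer. Fibroblast markers summed to 47.2 to 62.6, 43.9 to 75.5 and 17.4 to 20.6 CPM, and the part of these differences in the ISG values was not tested.

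Most ISG transcripts were scarce in these LLC cells, and their summed level was highest in KO E3. Averaged over the 9 libraries, 14 members lay above 10 CPM, 7 between 1 and 10 CPM, and 24 below 1 CPM. Summed over the 45 members, the mean level was 344 CPM in WT cells, 461 CPM in KO E3 and 379 CPM in KO E5. Trim25, Ifit2 and Eif2ak2 made up 52.4% of the WT sum. Per kilobase of exon, the highest WT level was that of Trim25 at 17.0 CPM per kb, followed by Bst2 at 12.1, Ifit2 at 7.61 and Eif2ak2 at 6.95. In KO E3, Ifit2 and Bst2 stood at 16.5 CPM per kb each and Trim25 at 13.3. Isg15 itself, a classical marker of the response, was at 0.680 CPM per kb in WT cells, 0.576 in KO E3 and 0.448 in KO E5.

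**Figure D1:**
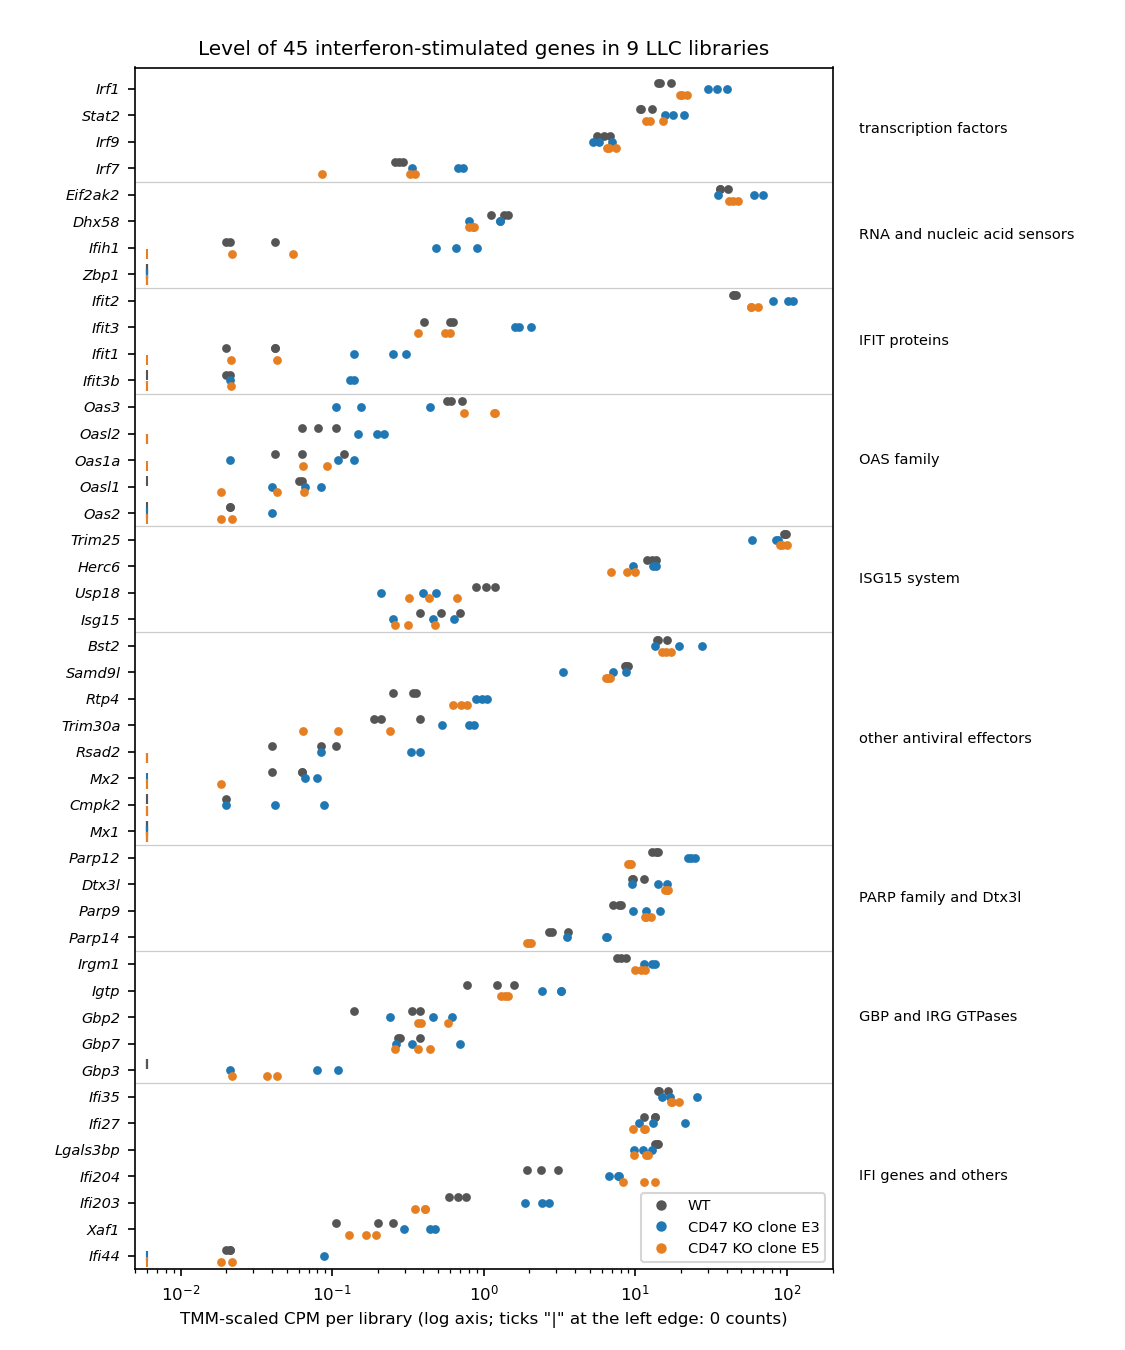
Level of each of the 45 interferon-stimulated genes in every library, in CPM on a log axis, with 1 point per library, colours for WT, KO E3 and KO E5, and ticks at the left edge for 0 counts. Ifit2, Irf1, Parp12 and Ifi203 have all 3 KO E3 points above all WT points, and Ifi203 and Parp12 have all 3 KO E5 points below them.

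A total of 32 members had enough counts to be tested. A DEG was a gene with FDR below 0.05 and a log2 fold change above 1 or below -1. In KO E3, 10 of the 32 tested members were DEGs with higher expression than in WT cells, against 5.43% of all genes tested, and 2 were DEGs with lower expression, against 4.39%, or 12 in either direction against 9.82%. In KO E5, 2 were higher, against 2.69% of all genes, and 1 was lower, against 5.52%, or 3 in either direction against 8.21%. The median log2 fold change of the tested members was 0.63 in KO E3 and 0.05 in KO E5, beside 0.01 and 0.00 over all genes. Both clones were compared with the same 3 WT libraries, so these contrasts are not independent.

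At an FDR under 0.05 without the fold change limit, 15 members were higher and 2 lower in KO E3, against 15.7% and 14.7% of all genes. In KO E5, 7 were higher and 4 lower, against 8.96% and 11.7%. All KO E3 libraries lay above all WT libraries for 15 members and below for 4, against 22.4% and 23.0% of all genes. For KO E5 the counts were 10 above and 8 below, against 27.0% and 28.4%.

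The clones were also compared with each other, which tests the difference between them. In this comparison 8 members were DEGs with lower expression in KO E5 than in KO E3, against 7.52% of all genes, and 1 was higher, against 3.49%. At FDR under 0.05 alone, 12 were lower and 2 higher, against 17.2% and 14.7%. The KO E5 libraries lay below all KO E3 libraries for 12 members and above for 3, against 22.7% and 21.8% of all genes. The median log2 difference of KO E5 from KO E3 was -0.39 over the tested members and -0.01 over all genes.

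The filter on low counts bears on these counts, because a gene high in 1 line can pass it through that line. Ifih1, Trim30a and Xaf1 reached 10 counts in every library of KO E3 but of no other line. Among the 26 members with at least 10 counts in every library, 7 were DEGs higher in KO E3 (Irf1, Ifit2, Ifit3, Rtp4, Igtp, Ifi203 and Ifi204), against 3.67% of the 12550 genes under the same filter, and 1 was lower (Usp18), against 2.92%, with 6.60% of genes called in either direction. In KO E5 the counts were 2 higher and 1 lower, against 2.01% and 2.54%, with 4.55% in either direction. Between the clones, 5 members were lower in KO E5 than in KO E3 and 0 were higher, against 4.21% and 2.45%, with 6.66% in either direction, and the 5 were Ifit3, Parp12, Parp14, Igtp and Ifi203.

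Without replicate 3 of KO E3, 10 members were again DEGs with higher expression in KO E3, against 5.37% of 14867 genes, and 1 was lower, against 4.30%, with 9.67% of genes called in either direction. Xaf1 dropped out at a log2 fold change of 1.05 with FDR 0.0637, Oas3 dropped out at -1.20 with FDR 0.0527, and Parp14 came in at 1.10 with FDR 0.000115. The median over tested members was then 0.74. Between the clones, 8 members were lower and 1 higher in KO E5 without that library, against 7.32% and 3.32%. Library by library, the median log2 difference of the tested members from the WT mean was 0.80, 0.55 and 0.69 in KO E3 and 0.10, 0.05 and 0.12 in KO E5.

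**Figure D2:**
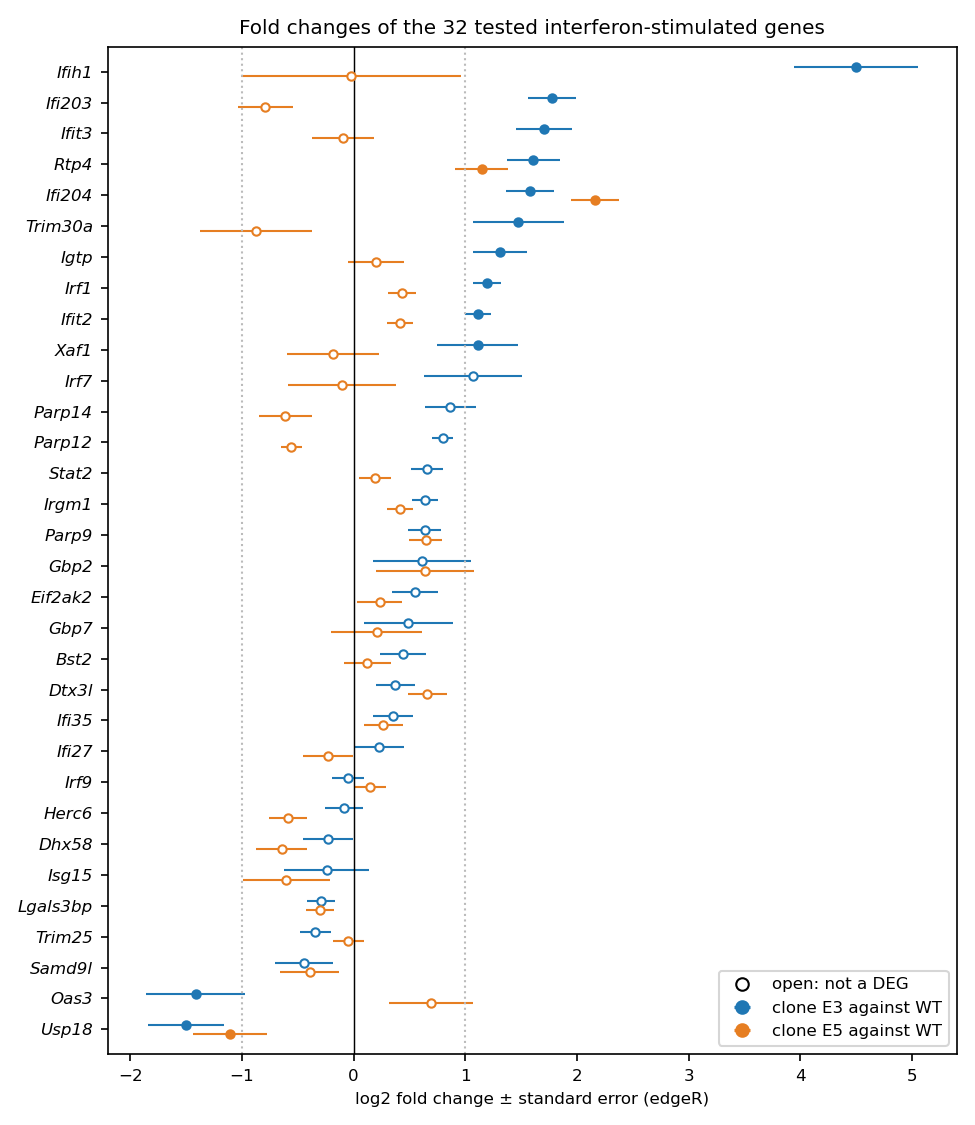
Log2 fold change of each tested interferon-stimulated gene against WT, with its SE as a bar, for KO E3 and KO E5, ordered by the KO E3 value, with filled points for DEGs. In KO E3, 10 points are DEGs to the right of 1 and 2 are DEGs to the left of -1, whereas in KO E5 2 are to the right and 1 to the left.

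The transcription factors of the response were led by Irf1, a factor that interferon gamma induces. Irf1 (chr11:53660841-53669200) stood at 17.1, 14.2 and 14.6 CPM in WT cells, 34.7, 30.1 and 40.2 CPM in KO E3 and 22.1, 20.3 and 19.6 CPM in KO E5. The 3 lines did not overlap, with WT cells lowest and KO E3 highest. Irf1 rose 2.29-fold in KO E3 (log2 fold change 1.19 ± 0.13, FDR 0.000116) and 1.35-fold in KO E5 (0.44 ± 0.13, FDR 0.0346), and KO E5 was lower than KO E3 (-0.76 ± 0.13, FDR 0.00129). The Irf1 call in KO E5 passed by a small margin, and its FDR reached 0.144 when single WT or KO E5 libraries were left out. That call was also lost under upper-quartile scaling (FDR 0.0712) and with a block for the replicate number (FDR 0.0501). Without replicate 3 of KO E3, the log2 fold change of Irf1 in KO E3 was 1.08.

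Stat2, a subunit of ISGF3, had 12.9, 10.8 and 10.7 CPM in WT cells, 21.0, 17.7 and 15.7 CPM in KO E3 and 15.1, 11.7 and 12.5 CPM in KO E5. All KO E3 libraries were above the other 6. Stat2 rose in KO E3 (log2 fold change 0.66 ± 0.15, FDR 0.00699), and the value in KO E5 was 0.19 ± 0.15 (FDR 0.409). Irf9, another ISGF3 subunit, had log2 fold changes of -0.05 and 0.15 and did not pass (FDR 0.828 and 0.527). Irf7, which amplifies type I interferon production and is one of the strongly interferon-dependent members, had 13, 14 and 13 counts in WT cells, 34, 16 and 33 in KO E3 and 4, 15 and 19 in KO E5. The Irf7 value in KO E3, 1.07 ± 0.44, did not pass (FDR 0.0914).

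Among the sensors of viral RNA, Ifih1 differed most. Ifih1 encodes MDA5, the sensor of long double-stranded RNA. Its counts (chr2:62426142-62476555) were 1, 2 and 1 in WT cells, 45, 31 and 22 in KO E3 and 0, 1 and 3 in KO E5. Ifih1 was thus near the detection limit in WT cells and KO E5 and clearly counted in every KO E3 library. The pooled counts were 4, 98 and 4, which gives a ratio of KO E3 to WT cells of 24.8 (95% exact interval 9.40 to 93.0, counting error only) and of KO E3 to KO E5 of 25.1 (9.51 to 94.1). The edgeR log2 fold change was 4.50 ± 0.55 in KO E3 (FDR 0.000263), and the difference of KO E5 from KO E3 was -4.52 ± 0.55 (FDR 0.000193), or -5.67 without KO E5 replicate 3, the only KO E5 library with more than 1 count.

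Eif2ak2 and Dhx58 did not pass the test, and Zbp1 was not tested. Eif2ak2 encodes PKR, the kinase that halts translation upon binding double-stranded RNA. Its levels were 35.9, 36.4 and 40.9 CPM in WT cells, 60.4, 69.97 and 35.3 CPM in KO E3 and 47.6, 44.2 and 41.4 CPM in KO E5, and replicate 3 of KO E3 fell below all WT libraries while the other 2 lay far above them. The log2 fold change of Eif2ak2 in KO E3 was 0.55 ± 0.20 (FDR 0.0650) with that library and 0.79 without it (FDR 3.07e-05). Dhx58, or LGP2, the regulatory member of the RIG-I family, had 1.36, 1.11 and 1.46 CPM in WT cells, 1.28, 0.803 and 1.28 in KO E3 and 0.862, 0.802 and 0.851 in KO E5. Its log2 fold changes were -0.23 ± 0.22 (FDR 0.481) and -0.64 ± 0.23 (FDR 0.0730). Zbp1, a sensor of Z-form nucleic acid, had 0 counts in all 9 libraries.

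The IFIT proteins bind viral RNA and lie in 1 cluster on chromosome 19. Ifit2 (chr19:34528094-34553819) was among the most abundant members, at 43.8, 44.6 and 46.4 CPM in WT cells, 109, 102 and 81.0 CPM in KO E3 and 64.1, 57.9 and 57.7 CPM in KO E5. As for Irf1, the 3 lines formed separate steps. Ifit2 rose 2.17-fold in KO E3 (log2 fold change 1.12 ± 0.12, FDR 0.000107) and 1.33-fold in KO E5 (0.41 ± 0.12, FDR 0.0299), and KO E5 was lower than KO E3 (-0.70 ± 0.12, FDR 0.00130). The Ifit2 FDR in KO E5 went up to 0.128 with single WT or KO E5 libraries left out, and was 0.0555 with a block for the replicate number.

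Ifit3 (chr19:34560931-34566131) was much scarcer, at 0.601, 0.631 and 0.401 CPM in WT cells, 1.70, 1.61 and 2.04 CPM in KO E3 and 0.603, 0.369 and 0.555 CPM in KO E5. WT cells and KO E5 overlapped, and KO E3 was above both. Ifit3 rose 3.26-fold in KO E3 (1.71 ± 0.25, FDR 0.000734), its value in KO E5 was -0.09 ± 0.28 (FDR 0.853), and KO E5 was 3.48-fold lower than KO E3 (-1.80 ± 0.25, FDR 0.000463). Ifit1 was not tested, with 1, 2 and 2 counts in WT cells, 7, 12 and 14 in KO E3 and 1, 2 and 0 in KO E5. The Ifit1 ratio of KO E3 to WT cells was 6.69 (2.60 to 21.96) from pooled counts. Ifit3b, the near-identical copy whose promoter is printed with that of Ifit3, had 1, 0 and 1 counts, 7, 1 and 6 counts and 1, 0 and 0 counts in the same order, and how reads that match both copies were counted is not given in the sources used here.

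In the OAS family, which makes 2-5A and so activates RNase L, Oas3 was the only member with enough counts to test, and it moved the other way. Oas3 (chr5:120891163-120915726) had 36, 29 and 27 counts in WT cells, 22, 5 and 7 in KO E3 and 54, 55 and 40 in KO E5. The 3 lines did not overlap, with KO E3 lowest and KO E5 highest. Oas3 fell in KO E3 (log2 fold change -1.41 ± 0.44, FDR 0.0344), was 0.69 ± 0.37 in KO E5 (FDR 0.227) and was 4.31-fold higher in KO E5 than in KO E3 (2.11 ± 0.43, FDR 0.00397). The Oas3 call in KO E3 was lost without any 1 of the WT libraries or of replicates 2 and 3 of KO E3, with FDR up to 0.1003, or 0.0527 without replicate 3 of KO E3. With only the 2 groups compared it was lost as well (FDR 0.0638). Without replicate 1 of KO E3, the log2 fold change of Oas3 was -2.27 in KO E3 and 2.96 between the clones, or 7.80-fold. Oasl2, an OAS-like protein, had 4, 3 and 5 counts in WT cells, 11, 7 and 9 in KO E3 and 0, 0 and 0 in KO E5. It was at least 4.05-fold lower in KO E5 than in WT cells, taking 3 counts over the 3 libraries as the limit. The pooled ratio of KO E3 to WT cells was 2.28 (1.12 to 4.94, counting error only). That Oasl2 contrast did not pass in a fit without the filter on low counts (FDR 0.276). Oas1a, Oas2 and Oasl1 had at most 7 counts in any library.

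ISG15 is a ubiquitin-like protein that is attached to targets by ligases such as HERC6 and TRIM25 and removed by USP18. Of the 4 members of this group, 1 was a DEG in each clone, Usp18. All 4 log2 fold changes were negative in both clones, but in KO E3 that of Herc6 was 0.05 without replicate 3 of KO E3 and that of Isg15 was 0.04 without replicate 2. Usp18 (chr6:121222865-121247876) stood at 1.18, 0.883 and 1.03 CPM in WT cells, 0.400, 0.211 and 0.484 CPM in KO E3 and 0.323, 0.434 and 0.666 CPM in KO E5. Both clones lay below all WT libraries and overlapped each other. Usp18, which also blocks IFNAR2 signalling, fell 2.82-fold in KO E3 (-1.50 ± 0.34, FDR 0.00793) and 2.15-fold in KO E5 (-1.11 ± 0.33, FDR 0.0371). The Usp18 call in KO E5 was lost without any 1 of the WT libraries and without replicate 1 or 2 of KO E5, with FDR between 0.0696 and 0.133.

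The remaining ISG15 genes changed less. Herc6 was at 13.0, 11.9 and 13.8 CPM in WT cells, 13.1, 13.7 and 9.59 CPM in KO E3 and 9.95, 8.87 and 6.88 CPM in KO E5, where it fell (-0.59 ± 0.17, FDR 0.0335, up to 0.118 with single WT or KO E5 libraries left out). The Herc6 value in KO E3 was -0.09 ± 0.17 (FDR 0.740), and 0.011 with each library's trend on exon length taken out. Trim25 was the most abundant member in WT cells and KO E5, whereas Ifit2 stood above it in KO E3. Trim25 was at 98.9, 97.7 and 96.2 CPM in WT cells, 87.1, 84.5 and 58.9 CPM in KO E3 and 89.6, 93.4 and 100.003 CPM in KO E5. It did not pass in either clone (FDR 0.0835 and 0.848). Isg15 had 0.521, 0.379 and 0.697 CPM in WT cells, 0.460, 0.254 and 0.638 in KO E3 and 0.259, 0.477 and 0.314 in KO E5, and its log2 fold changes of -0.24 ± 0.38 and -0.60 ± 0.39 did not pass (FDR 0.672 and 0.319).

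Among the other antiviral effectors, Rtp4 rose in both clones. Rtp4 (chr16:23339041-23432972), a zinc finger protein that restrains viral replication, was at 0.341, 0.358 and 0.253 CPM in WT cells, 0.980, 0.888 and 1.06 CPM in KO E3 and 0.711, 0.781 and 0.629 CPM in KO E5. No library of one line overlapped with another line. Rtp4 rose 3.05-fold in KO E3 (1.61 ± 0.23, FDR 0.000686) and 2.21-fold in KO E5 (1.15 ± 0.24, FDR 0.00734). Rtp4 shares 26.6% of its exon length with a predicted gene on the same strand, so reads there could have been assigned to either.

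Trim30a (chr7:104058232-104114400), which dampens Toll-like receptor signalling, had 19, 10 and 9 counts in WT cells, 43, 38 and 24 in KO E3 and 3, 5 and 13 in KO E5. It rose 2.78-fold in KO E3 (1.48 ± 0.40, FDR 0.0196) and was 5.09-fold lower in KO E5 than in KO E3 (-2.35 ± 0.44, FDR 0.00274), or 8.22-fold without KO E5 replicate 3. The Trim30a call in KO E3 was lost without WT replicate 2 or 3 (FDR 0.0837 and 0.0841) or KO E3 replicate 1 (FDR 0.0621). Bst2 encodes tetherin, which holds budding virions at the cell surface. It was at 16.2, 14.2 and 13.8 CPM in WT cells, 19.3, 13.5 and 27.4 CPM in KO E3 and 15.1, 17.1 and 16.0 CPM in KO E5, with log2 fold changes of 0.44 ± 0.21 (FDR 0.136) and 0.12 ± 0.21 (FDR 0.732).

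Samd9l, a restriction factor of poxviruses, had 8.89, 8.498 and 8.72 CPM in WT cells, 7.14, 8.68 and 3.34 CPM in KO E3 and 6.44, 6.59 and 6.82 CPM in KO E5. Its KO E3 value was set largely by replicate 3, being -0.44 with it (FDR 0.233) and -0.14 without it. Rsad2, which encodes viperin, had 2, 5 and 4 counts in WT cells, 19, 4 and 15 in KO E3 and 0, 0 and 0 in KO E5. It was at least 3.71-fold lower in KO E5 than in WT cells. The pooled ratio of KO E3 to WT cells was 3.50 (1.75 to 7.60, counting error only). That Rsad2 contrast did not pass in a fit without the filter on low counts (FDR 0.0771). Mx1 had 0 counts in every library, and Mx2 and Cmpk2 had at most 4.

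The PARP members and Dtx3l add or read ADP-ribose and include PARP9 and DTX3L, which work as a pair. None of the 4 was a DEG against WT cells in either clone, but all had positive values in KO E3, and Parp12 and Parp14 differed between the clones. Parp12 (chr6:39063344-39095283) varied little within a line, at 14.1, 12.8 and 13.6 CPM in WT cells, 24.9, 22.4 and 23.2 CPM in KO E3 and 9.01, 9.24 and 9.30 CPM in KO E5. Parp12 rose 1.74-fold in KO E3 (0.80 ± 0.09, FDR 0.000205), fell 1.47-fold in KO E5 (-0.56 ± 0.10, FDR 0.00220) and was 2.56-fold lower in KO E5 than in KO E3 (-1.36 ± 0.10, FDR 3.75e-06).

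Parp14 (chr16:35653244-35691914) was likewise highest in KO E3, with 3.59, 2.82 and 2.68 CPM in WT cells, 6.54, 6.44 and 3.54 CPM in KO E3 and 1.98, 2.04 and 1.92 CPM in KO E5. Replicate 3 of KO E3 fell within the WT range. Parp14 rose in KO E3 (0.86 ± 0.23, FDR 0.0166), with FDR up to 0.0725 without WT replicate 2 or 3 or KO E3 replicate 1, and was 2.78-fold lower in KO E5 than in KO E3 (-1.48 ± 0.24, FDR 0.00100).

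Parp9 and Dtx3l are divergent neighbours of Parp14 on chromosome 16 that share 458 exon bases on opposite strands. Parp9 rose in both clones (0.64 ± 0.15, FDR 0.00846 in KO E3, and 0.65 ± 0.15, FDR 0.0110 in KO E5), the latter lost without WT replicate 2 or KO E5 replicate 1 (FDR up to 0.0613). Dtx3l had 11.4, 9.70 and 9.52 CPM in WT cells, 16.1, 14.1 and 9.50 CPM in KO E3 and 16.4, 15.7 and 16.3 CPM in KO E5. It rose in KO E5 (0.66 ± 0.17, FDR 0.0218, up to 0.0908 with single libraries left out), and its KO E3 value was 0.37 ± 0.17 (FDR 0.129) with replicate 3 and 0.56 without it. Between the clones neither passed, at 0.01 for Parp9 (FDR 0.976) and 0.29 for Dtx3l (FDR 0.232). Parp9 and Dtx3l were thus up by a like amount in KO E5 while the adjoining Parp14 had a value of -0.61 ± 0.24 there (FDR 0.0975).

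The immune GTPases act on vacuoles that hold intracellular pathogens, and all 4 tested members had positive log2 fold changes in both clones, although Gbp7 was at -0.05 in KO E3 without replicate 1 of KO E3 and Igtp at -0.04 in KO E5 without replicate 2 of WT. Igtp (chr11:58090382-58098417), also named Irgm3, was at 1.58, 0.778 and 1.22 CPM in WT cells, 3.22, 2.43 and 3.25 CPM in KO E3 and 1.38, 1.45 and 1.29 CPM in KO E5. It rose 2.48-fold in KO E3 (1.31 ± 0.24, FDR 0.00268) with no overlap, was 0.20 ± 0.25 in KO E5 (FDR 0.639), and was lower in KO E5 than in KO E3 (-1.11 ± 0.24, FDR 0.00575). Irgm1 was at 8.71, 7.57 and 8.04 CPM in WT cells, 13.5, 11.5 and 12.9 CPM in KO E3 and 11.5, 10.95 and 9.95 CPM in KO E5. Irgm1 rose in KO E3 (0.64 ± 0.12, FDR 0.00226) and in KO E5 (0.41 ± 0.12, FDR 0.0283), the latter with FDR up to 0.132 when single libraries were left out. The Irgm1 call in KO E5 was also lost under upper-quartile scaling (FDR 0.0501) and with no filter (FDR 0.0668). Gbp2 (FDR 0.324 and 0.347) and Gbp7 (FDR 0.389 and 0.773) did not pass in either clone. Gbp3 had 0 counts in the 3 WT libraries, 4, 1 and 5 counts in KO E3 and 2, 1 and 2 counts in KO E5, at least 3.38-fold above WT cells in KO E3 and at least 1.65-fold in KO E5.

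Ifi203 and Ifi204 are neighbouring PYHIN genes on chromosome 1, whose family includes sensors of nuclear and cytosolic DNA, and only Ifi204 was higher in both clones. Ifi203 (chr1:173747973-173770238) was at 0.761, 0.673 and 0.591 CPM in WT cells, 2.68, 1.86 and 2.42 CPM in KO E3 and 0.409, 0.412 and 0.351 CPM in KO E5. Ifi203 rose 3.42-fold in KO E3 (1.78 ± 0.21, FDR 0.000215), fell 1.73-fold in KO E5 (-0.79 ± 0.24, FDR 0.0436) and was 5.92-fold lower in KO E5 than in KO E3 (-2.57 ± 0.23, FDR 1.81e-05). The fall of Ifi203 in KO E5 had an FDR of up to 0.141 with single libraries left out. It was lost in 9 of 17 alternatives. Among these were upper-quartile scaling (FDR 0.0509), no filter (FDR 0.0719) and a block for the replicate number (FDR 0.0724).

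Ifi204 (chr1:173574859-173594485) was at 3.08, 1.94 and 2.38 CPM in WT cells, 7.84, 6.68 and 7.67 CPM in KO E3 and 13.6, 11.4 and 8.32 CPM in KO E5. Here KO E5 was the highest line and every KO library lay above every WT library. The difference of KO E5 from KO E3 passed by a small margin (0.58 ± 0.20, FDR 0.0483). It was lost in 8 of 17 alternatives, with FDR up to 0.185. Ifi204 rose 2.99-fold in KO E3 (1.58 ± 0.21, FDR 0.000450) and 4.48-fold in KO E5 (2.16 ± 0.21, FDR 6.32e-05). The 2 genes are near-identical in part, and how reads that match both were counted is not given in the sources used here.

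Xaf1, a pro-apoptotic partner of XIAP, was at 0.200, 0.252 and 0.106 CPM in WT cells, 0.480, 0.296 and 0.440 CPM in KO E3 and 0.129, 0.195 and 0.166 CPM in KO E5. Its value in KO E3 was 2.16-fold that of WT cells (1.11 ± 0.36, FDR 0.0411), with FDR up to 0.152 when single libraries were left out. The Xaf1 call held in 4 of 16 alternatives and was lost in 12. Among the 12 were DESeq2 (FDR 0.0687), only the 2 groups compared (FDR 0.0739) and no filter (FDR 0.0832). Ifi35 had 16.3, 14.3 and 14.1 CPM in WT cells, 16.9, 14.96 and 25.4 CPM in KO E3 and 17.1, 17.4 and 19.3 CPM in KO E5, and did not pass (FDR 0.161 and 0.334). Ifi27, a mitochondrial protein, had 13.5, 13.5 and 11.4 CPM in WT cells, 13.1, 10.6 and 21.3 CPM in KO E3 and 9.61, 11.5 and 11.6 CPM in KO E5, and did not pass (FDR 0.469 and 0.523). For Ifi35 and Ifi27, replicate 3 of KO E3 was the highest of the 9 libraries. Lgals3bp, a secreted glycoprotein, did not pass (FDR 0.107 and 0.120), and Ifi44 had at most 4 counts in a library.

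The length-related deviation of replicate 3 of KO E3 was visible across the members. Over the 32 tested members, its log2 difference from replicates 1 and 2 had a Spearman correlation of -0.77 with exon length, beside -0.49 over 14538 genes, a description of 1 library. Samd9l (-1.23), Eif2ak2 (-0.88) and Parp14 (-0.87) were the lowest in it, and Ifi27 (0.85) and the short Isg15 (0.82) and Bst2 (0.76) were the highest. With the trend on exon length taken out in a fit added after seeing the data, 10 members were higher and 2 lower in KO E3, against 5.31% and 4.52% of all genes and 9.83% in either direction. In KO E5, 2 were higher and 1 lower in that fit, against 2.75% and 5.70%, with 8.45% in either direction.

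**Figure D3:**
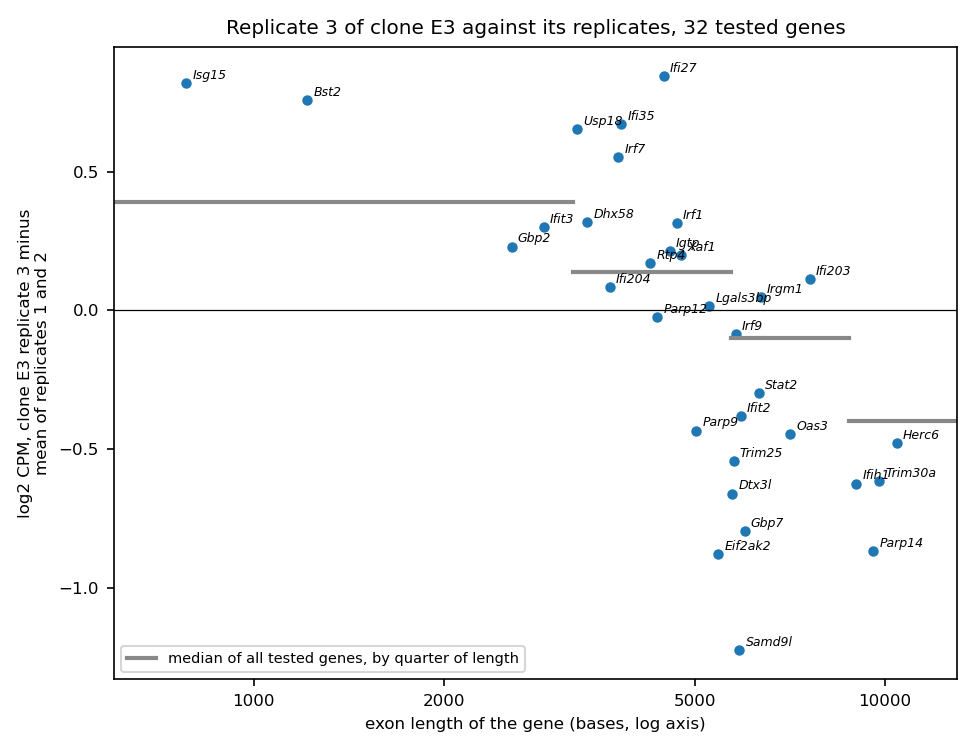
Log2 difference of replicate 3 of KO E3 from replicates 1 and 2 against exon length in bases (log axis), with 1 point for each of the 32 tested interferon-stimulated genes and grey bars for the median of all tested genes in each of 4 length classes. The grey bars step down from 0.39 to -0.40, and the points run from Ifi27 (0.85) and Isg15 (0.82) down to Samd9l (-1.23).

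For the 13 members that were too low to test, the highest count in any library was 19, and Zbp1 and Mx1 had 0 counts throughout. In a fit without the filter, Ifit1 had a log2 fold change of 2.65 in KO E3 (FDR 0.0122), and Gbp3 passed there too (FDR 0.0409). Oasl2 and Rsad2 passed in KO E5 in that fit (FDR 0.0130 and 0.0291), where both had 0 counts in every library. In KO E3 neither passed in that fit (FDR 0.276 and 0.0771). In bulk RNA, more cells carrying a transcript and more of it per cell cannot be told apart, which bears most on genes at these counts.

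**Figure D4:**
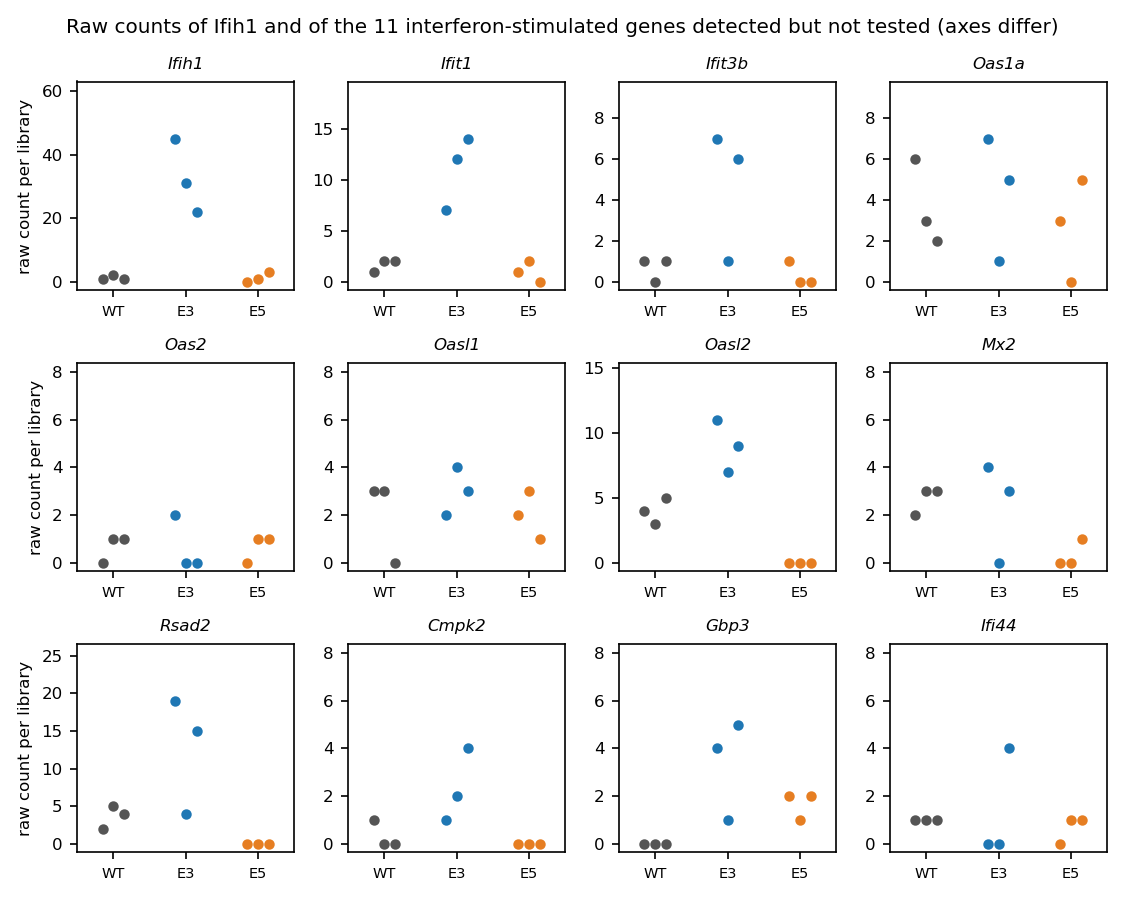
Raw counts per library of Ifih1 and of the 11 interferon-stimulated genes that were detected but too low to test, in WT, KO E3 and KO E5, on axes that differ between panels. Rsad2 reaches 19 counts in KO E3 and has 0 counts in all KO E5 libraries, and Ifit1 reaches 14 in KO E3 and at most 2 elsewhere.

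DEGs were found among members with and without an ISRE core. Of the tested members with a promoter window, 5 of 13 with an ISRE core were DEGs higher in KO E3 and 1 was lower, while 3 of 12 without one were higher and 0 lower. Over all 352 tested genes with an ISRE core, 7.67% were higher and 4.83% lower in KO E3, beside 5.21% and 4.25% of the 9752 without. In KO E5, 0 of the 13 and 0 of the 12 were DEGs. The members that were DEGs in KO E5 (Rtp4, Ifi204 and Usp18) had no promoter window. The KO E5 counts therefore cannot compare members with and without a core. The shares over all genes with an ISRE core were 3.12% higher and 6.25% lower in KO E5. Isg15, with 3 overlapping cores, did not pass, and Oas3, with 1, fell in KO E3.

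The ligands, receptors and kinases of the pathway gave 0 DEGs in either clone. None of the 21 interferon genes listed as ligands had enough counts to test, 18 had 0 counts in every library, and the highest count was 5. Of the receptor chains, 5 of 6 were tested and 0 were DEGs in either clone. Over all genes tested, 9.82% were DEGs in KO E3 and 8.21% in KO E5 in either direction. At these shares, lists this short give few DEGs. Ifngr2 rose in KO E5 (log2 fold change 0.70 ± 0.11, FDR 0.00133) and was 0.05 in KO E3 (FDR 0.775). Ifngr1 (0.30 and -0.14), Ifnar2 (-0.32 and -0.05), Ifnar1 (-0.20 and 0.26) and Il10rb (0.18 and 0.07) did not pass in KO E3 or KO E5.

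The 5 kinases and STATs gave 0 DEGs in either clone, against 9.82% of all genes in KO E3 and 8.21% in KO E5. Jak2 fell in KO E5 (-0.78 ± 0.14, FDR 0.00251) and was 0.01 in KO E3 (FDR 0.972). Jak1 (0.27 and 0.10), Tyk2 (0.03 and 0.14) and Stat3 (0.06 and -0.33) did not pass.

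Of 7 inhibitors of the pathway, 0 were DEGs in KO E3, against 9.82% of all genes, and 1 was lower in KO E5, against 5.52%. The last was Cish, which counted 15, 5 and 13 in WT cells, 15, 8 and 12 in KO E3 and 0, 0 and 0 in KO E5 (FDR 0.00362). Socs3, a feedback inhibitor of JAK kinases, rose in KO E3 (0.49, FDR 0.00660) and was 0.16 in KO E5 (FDR 0.341). Ptpn6, which encodes the phosphatase SHP-1, fell in KO E3 (-0.62, FDR 0.00213) and was 0.07 in KO E5 (FDR 0.703).

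In the sensing pathway above interferon production, 13 genes were tested. In KO E3, 0 were higher and 1 lower as DEGs, against 5.43% and 4.39% of all genes. In KO E5, 0 were higher and 2 lower, against 2.69% and 5.52%. In each clone 6 of the 13 log2 fold changes were positive and 7 negative. The median was -0.03 in KO E3 and -0.35 in KO E5, and the lowest values were -1.05 and -1.40. Ticam1, the TRIF adaptor of Toll-like receptors, rose in KO E3 (0.87 ± 0.11, FDR 0.000262) and was 0.10 in KO E5 (FDR 0.575). Rigi, which encodes the RNA sensor RIG-I, rose in KO E3 as well (0.70 ± 0.14, FDR 0.00368), was 0.06 ± 0.14 in KO E5 (FDR 0.803) and was lower in KO E5 than in KO E3 (-0.64 ± 0.14, FDR 0.00562). Neither Ticam1 nor Rigi was a DEG in KO E3, and Rigi was named after its values were seen. Myd88, the other main adaptor, fell in both (-0.25, FDR 0.0459 in KO E3, and -0.83 ± 0.08, FDR 7.45e-05 in KO E5). Ikbke, a kinase that activates IRF3, fell in KO E5 (-1.01 ± 0.15, FDR 0.000833) and was 0.16 in KO E3 (FDR 0.425).

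A list of 70 other interferon-inducible genes, 45 of which were tested, also differed between the clones. In KO E3, 6 were DEGs with higher and 2 with lower expression, against 5.43% and 4.39% of all genes. The 2 lower in KO E3 were 4.44% of the tested list, near the share of all genes. In KO E5, 2 were higher and 10 lower, against 2.69% and 5.52%. The medians of the log2 fold change were 0.33 and -0.21. Between the clones, 12 of the 45 were DEGs lower in KO E5 and 1 was higher, against 7.52% and 3.49% of all genes. Gbp9, a guanylate-binding GTPase, was at 0.561, 0.526 and 0.464 CPM in WT cells, 4.66, 3.32 and 2.90 CPM in KO E3 and 0.0862, 0.0217 and 0.0185 CPM in KO E5. Gbp9 rose in KO E3 (2.80 ± 0.27, FDR 6.70e-05) and fell in KO E5 (-3.58 ± 0.48, FDR 0.000475).

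Tapbp encodes tapasin, which loads peptides on MHC class I. It rose in both clones (1.25 ± 0.13, FDR 0.000111 in KO E3, and 0.45, FDR 0.0347 in KO E5). Ifi211, another PYHIN gene, rose in both as well (0.94 ± 0.13, FDR 0.000463, and 1.14 ± 0.13, FDR 0.000144). Nlrc5, the activator of MHC class I genes, fell in both (-1.07, FDR 0.0289, and -2.13, FDR 0.00163). Ifitm1, which blocks viral fusion, rose in KO E5 (1.60, FDR 0.000492) and was -0.56 in KO E3 (FDR 0.0813).

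NF-kB and p53 targets were counted in the same way, where 5.43% of all genes were higher and 4.39% lower in KO E3 and 2.69% and 5.52% in KO E5. Of 20 NF-kB targets tested, 0 were higher and 4 lower as DEGs in KO E3 and 0 and 2 in KO E5. Ptgs2, or COX-2, fell in both clones (-2.02 ± 0.15, FDR 1.46e-05, and -1.72 ± 0.15, FDR 2.16e-05), as did the NF-kB regulator Nfkbiz (-1.09, FDR 6.25e-05, and -0.62, FDR 0.00205). Birc3, an inhibitor of apoptosis, had 117, 100 and 110 counts in WT cells, 43, 33 and 38 in KO E3 and 0, 2 and 1 in KO E5, and fell in both (FDR 0.00102 and 1.84e-06). Of 19 p53 and DNA damage targets tested, 2 were higher and 3 lower in KO E3, and 0 higher and 2 lower in KO E5. Gdf15, a stress-induced cytokine, fell in KO E3 (-4.70 ± 0.45, FDR 5.59e-05), Sesn2 fell in both (-1.44, FDR 5.84e-05, and -0.69, FDR 0.00517), and Plk2 fell in KO E5 (-1.19 ± 0.13, FDR 9.85e-05).

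**Figure D5:**
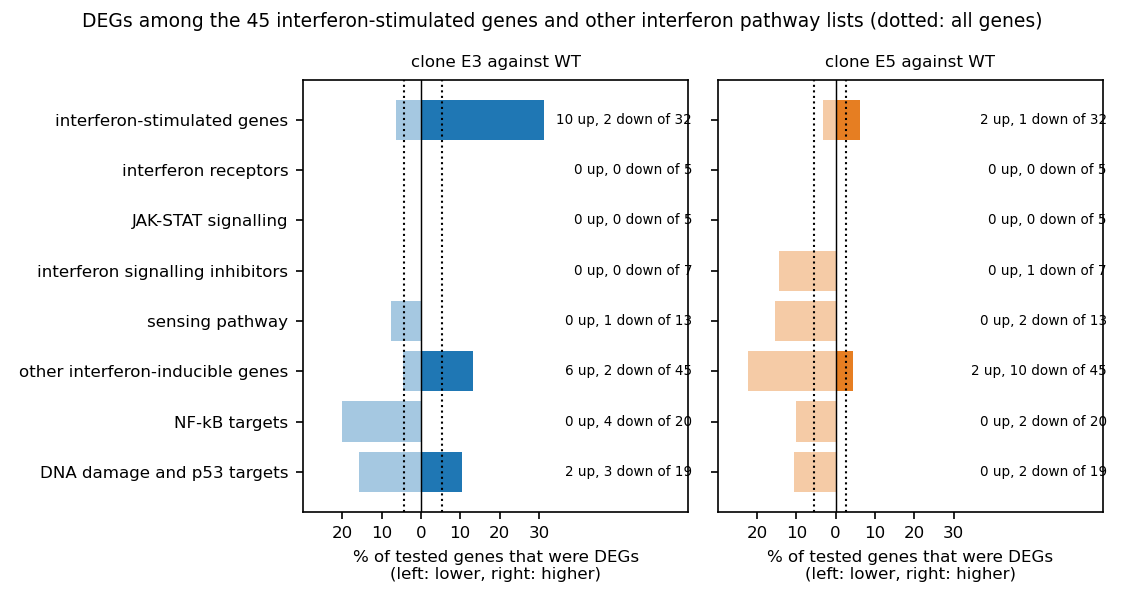
Percent of the tested genes of each list that were DEGs against WT, lower to the left and higher to the right, for KO E3 and KO E5, with the numbers beside the bars and dotted lines for all genes. The interferon-stimulated genes have 10 higher and 2 lower in KO E3, and the other interferon-inducible genes have 2 higher and 10 lower in KO E5.

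As DEGs, 2 of the 32 tested members (Rtp4 and Ifi204) were higher in both clones, against 0.953% of all genes tested, and 1 (Usp18) was lower in both, against 1.6%. None of the members was a DEG in opposite directions, against 0.898% of genes higher in KO E3 and lower in KO E5 and 0.267% the other way. At an FDR under 0.05 alone, 6 members were higher in both (Irf1, Ifit2, Rtp4, Parp9, Irgm1 and Ifi204), against 3.83% of genes, 1 was lower in both (Usp18), against 4.65%, and 2 (Parp12 and Ifi203) were higher in KO E3 and lower in KO E5, against 1.6%. The WT libraries are shared by both contrasts. Of the 17 members past an FDR of 0.05 in KO E3, 13 stayed past it under every alternative that gave them a value, and of the 11 in KO E5, 3 did (Rtp4, Parp12 and Ifi204). For KO E5 against KO E3 it was 10 of 14. Irf7, Ifih1, Oas3, Trim30a, Gbp2 and Xaf1 fell below the stricter of the count filters in some library and so had no value under it.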

How the data were processed

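The 9 libraries, 3 each of WT cells and of the CD47 KO clones E3 and E5, were assigned by their labels, and the study's methods give the replicates of a genotype as independent. Per the labels and methods, the authors ran FastQC and Trimmomatic on the reads, used STAR with GRCm39, and compared lines with DESeq2. The deposited values are raw counts for each gene, without normalization and without pooling. The counting tool, the strand option and the annotation release are not given in the sources used here. Counts of overlapping genes and of near-identical copies (Ifit3 and Ifit3b, Ifi203 and Ifi204, the Gbp, Trim30 and Oas families) are therefore uncertain, although the library kit was directional. Predicted genes on the opposite strand overlap Irf1 and Isg15, 1 of them over 31.4% of the Irf1 exon length and 1 over 31.1% for Isg15.

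The counts were scaled by TMM and tested by quasi-likelihood in edgeR 4.0.16 (R 4.3.3), with the 3 lines in 1 fit, after filterByExpr (minimum count 10, minimum total 15) had left 14593 of 50813 genes. Each SE was obtained by dividing the log2 fold change by the root of its F statistic. A DEG had FDR (Benjamini-Hochberg) below 0.05 and a log2 fold change beyond 1 in either direction. Ratios of pooled low counts have 95% exact intervals, and a group with 0 counts was set to a limit of 3 counts. Depths of 44257404 to 55095219 counts leave counting error small above a few CPM, and intervals and limits cover counting error only. On counts simulated for 14593 genes with 100 changed at each size, the test recovered 91 at a log2 size of 1.5 and 97 at 3 for KO E3, with 0 false calls, and 91 and 97 for KO E5, with 3. The simulated libraries were drawn independently, without the length-related deviation of replicate 3 of KO E3. They also held far fewer changed genes than were called in the data. The false calls in the real contrasts are therefore not measured by it. Alternatives were DESeq2 1.42.0, other scalings and filters, only the 2 groups compared, a replicate block, each library left out and, added after seeing the data, a trend on exon length taken out.

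The members, the pathway lists and the rule for named genes were chosen with earlier results of these data known. The rule took the 2 members with the highest mean CPM in each role group, up to 3 more called members a group by FDR, the tested receptor and JAK-STAT genes (1 of them is not reported here), and the 3 genes with the smallest FDR of each other list. Irf7, Irf9, Isg15, Parp9, Ifit1, Ifit3b, Rsad2, Mx1, Mx2, Cmpk2, Zbp1, Oas1a, Oas2, Oasl1, Gbp2, Gbp3, Gbp7, Lgals3bp, Ifi44, Rigi, Nlrc5 and Ifitm1 were named after their values were seen. Gene positions are those deposited. Exon lengths and exon overlaps are from GENCODE vM39, in which the positions of 7 of the 45 members equalled those deposited. Lengths behind the counts may therefore differ, which bears on levels per kb, overlap shares and the length trend. Promoter windows are RefSeq's, from a GRCm38.p6 table, and 11 members had none.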

Additional observations from a re-analysis of the deposited data

Results flagged for a closer look

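For 9 interferon-stimulated genes the effect against WT differed between the CD47 KO clones, by edgeR's test of KO E5 against KO E3. The log2 difference of KO E5 from KO E3 was -4.52 for Ifih1, -1.8 for Ifit3, -2.35 for Trim30a, -1.36 for Parp12, -1.48 for Parp14, -1.11 for Igtp, -2.57 for Ifi203 and -1.3 for Xaf1, and 2.11 for Oas3. Leaving out 1 library moved 3 of them by over 1.5 times: Ifih1 to -5.67 and Trim30a to -3.04 without KO E5 replicate 3, and Oas3 to 2.96 without KO E3 replicate 1. Each KO line is 1 clone, so a difference between the clones and a difference between single cells they grew from cannot be told apart. The Xaf1 difference was lost without KO E3 replicate 1 (FDR 0.0701) and without KO E5 replicate 1 or 3 (FDR 0.0784 and 0.0684).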

How the results depend on the processing

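With single libraries left out, 9 to 12 members were DEGs with higher expression in KO E3, 2 in KO E5. Over all genes, 690 to 889 were higher in KO E3 and 334 to 455 in KO E5 in those fits. With at least 10 counts in every library, 1 member was lower in KO E3, and 0 were higher and 5 lower in KO E5 than in KO E3. Over all genes that filter gave 461 higher and 367 lower in KO E3, 252 and 319 in KO E5, and 308 and 528 between the clones. With only the 2 groups compared, 1 member was lower in KO E3 and the median in KO E5 was 0.15. With no filter, 3 members were lower in KO E5 and the median was -0.11. The shares of all genes called are not given here for the 2-group fit or the fit with no filter. With single libraries left out, members lower in KO E3 ranged from 1 to 2 and in KO E5 from 0 to 2. Over all genes, 572 to 694 were lower in KO E3 and 697 to 896 in KO E5 in those fits. The KO E5 median ranged from -0.088 to 0.079, and the median between the clones from -0.53 to -0.35. Of the single-member values, 1543 of 1611 kept their direction and their side of the threshold, 30 fell short of it, 5 passed it and 33 changed sign. Of those 33, 0 had passed an FDR of 0.05, the lowest FDR among them being 0.389. With single libraries left out, the KO E3 values ranged from -0.18 to 0.037 for Irf9, -0.57 to 0.036 for Isg15, -0.19 to 0.054 for Herc6, -0.047 to 0.74 for Gbp7 and -0.11 to 0.42 for Ifi27. The KO E5 values ranged from -0.42 to 0.29 for Irf7, -1.17 to 0.48 for Ifih1, -0.27 to 0.084 for Ifit3, -0.036 to 0.45 for Igtp and -0.46 to 0.084 for Xaf1. Between the clones the ranges were -0.25 to 0.33 for Samd9l, -0.12 to 0.17 for Parp9, -0.27 to 0.35 for Gbp2, -0.52 to 0.25 for Gbp7, -0.23 to 0.18 for Ifi35 and -0.10 to 0.087 for Lgals3bp. Under upper-quartile scaling Irf9 was 0.024 in KO E3, and between the clones Samd9l was -0.022, Parp9 -0.078 and Gbp2 -0.060. With the length trend taken out, Herc6 was 0.011 in KO E3, and between the clones Ifi35 was 0.012 and Lgals3bp 0.020. Parp9 was -0.013 between the clones with at least 10 counts in every library, and Ifih1 0.0030 in KO E5 with the replicate block. The causes were not tested.

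The deviations of same-numbered libraries correlated at -0.17 to 0.05, and 0 of 9 pairs exceeded 0.1. A pair with different numbers, KO E3 replicate 1 and KO E5 replicate 3, reached 0.18. These values cannot show whether libraries were prepared in numbered pairs, because the deviations also hold the length trend of KO E3 replicate 3. With the replicate number as a block, 9 members were higher and 2 lower in KO E3, 2 and 1 in KO E5, and 1 and 7 between the clones, and Xaf1 was lost (FDR 0.0789 in KO E3 and 0.0509 between the clones). DESeq2 gave 9 and 2, 2 and 1, and 1 and 8. The shares of all genes called with the block and by DESeq2 are not given here, so these counts were not set against them. Depth limits the 24 members below 1 CPM, for which 3 libraries a line give wide intervals.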
